A study of Mus musculus with 2 samples.

Results

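Type 1 conventional dendritic cells (cDC1) of the mouse spleen were described in 2 single-cell RNA libraries of dendritic cell (DC)-enriched spleen, made from a wild-type control animal and an animal of a sickle cell disease (SCD) model. The cells were chosen by measured counts: a cDC1 held at least 3 UMIs (unique molecular identifiers, each counting 1 captured transcript) summed over Xcr1, Clec9a, Gcsam and Itgae, at least 1.5% of its UMIs on the class II genes Cd74, H2-Aa, H2-Ab1 and H2-Eb1, at most 2 Siglech UMIs, at most 1 UMI over Ccr7 and Fscn1, and under 1% of UMIs on S100a8 and S100a9. These limits were applied to cells with 500 to 5000 genes, under 15% mitochondrial and under 30% ribosomal protein UMIs. They left 316 cDC1 of 20058 cells kept and 24292 barcodes in all. The wild-type library gave 145 of 9423 cells kept and the SCD library 171 of 10635.

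By the labels, both mice carried the transgene Tg(HBA-HBBs)41Paz, which encodes human sickle hemoglobin, and both were homozygous for Hbatm1Paz, a targeted allele of the mouse alpha globins. The control was labelled hemizygous for the transgene, heterozygous for Hbbtm1Tow, a targeted allele of the mouse beta globins, and non-sickling. The SCD animal, of the Berkeley model and a mixed genetic background, was labelled homozygous for Hbbtm1Tow and for the transgene. Over all cells kept, the beta globin gene Hbb-bs was at 2293 counts per 1000000 UMIs (CPM) for the control and at 20.8 for the SCD animal. Hbb-bt was likewise lower in the animal labelled homozygous, at 664 and 12.2 CPM. The alpha globin gene Hba-a1 was at 915 and 792 CPM, while both animals were labelled homozygous for the targeted alpha globin allele. The source of these reads was not tested. The animals were aged 12 to 16 weeks, received no treatment, and their spleen cells were freed of red cells by lysis and enriched for DCs by bead depletion of other cells before loading on the 10x Genomics 3′ platform. Each group held 1 mouse and 1 library, so the differences given below carry no p-value and were not checked in replicates. The 95% intervals given cover counting error only, since the cells of 1 animal are not replicates of a condition, and differences between the animals, the enrichments or the libraries cannot be told apart from the genotype.

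cDC1 are the DC subset that specialises in taking up dead cells and presenting their antigens on MHC class I to CD8+ T cells (cross-presentation). Their development depends on the transcription factors IRF8 and BATF3. In mouse spleen they are known by the chemokine receptor XCR1, the dead-cell receptor CLEC9A and, on most cells, CD8 alpha, with CD103 (encoded by Itgae) on a part of them, while type 2 cells (cDC2) carry SIRP alpha and depend more on IRF4.

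The cDC1 were deep for droplet data. A wild-type member held a median of 15964 UMIs (2297 to 29044) and 3850 genes, and an SCD member 15444 UMIs (2058 to 33885) and 3640 genes. Summed over cells, the members gave 2395712 wild-type and 2601200 SCD UMIs, on which levels are given in CPM. The libraries shared 88 barcodes, none of them of a member. Scrublet called 2 wild-type and 0 SCD members doublets, of 360 and 167 called in all. Taken over all members, markers outside the rule fitted the label. Naaa and Tlr3, which were not used for the choice, had a UMI in 98.6% and 80.7% of wild-type and in 99.4% and 87.7% of SCD members, against 8.37% and 0.188% of wild-type cells in a neutrophil gate (at least 3% of UMIs on S100a8 and S100a9), which should lack them, and 9.73% and 0.555% of SCD ones. Median depths there were 2552 and 7264 UMIs. After thinning every cell to 1000 UMIs, Naaa was seen in 74.5% and 87.7% of members and in 2.57% and 1.67% of neutrophils, wild-type first. The label was less clear for the 41 wild-type members with 3 to 7 UMIs over the 4 cDC1 genes. In them 14 genes listed for cDC2 summed to 1484 CPM and the 6 cDC1 markers to 1373 CPM. Such cells of both libraries are described below.

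The cDC1 made up a similar share of the cells kept in both libraries, and a larger share of the SCD library once cells high in S100a8 and S100a9 or cells low in class II were left out. They were 1.54% (Clopper-Pearson 95% interval 1.30 to 1.81) of wild-type and 1.61% (1.38 to 1.87) of SCD cells kept, a ratio of 1.04 (0.839 to 1.30). Of the cells past the class II gate, they were 5.14% of 2819 in wild-type and 22.3% of 766 in SCD, a ratio of 4.34 (3.53 to 5.33). Of the 4806 and 3004 cells with under 1% of UMIs on S100a8 and S100a9, they were 3.02% and 5.69%, a ratio of 1.89 (1.52 to 2.34). The neutrophil gate, with its limit of 3%, held 4264 wild-type and 7393 SCD cells, and a cDC2 gate (class II as for cDC1, no UMI of the 4 cDC1 genes, none of Cd79a and Cd79b, and at least 2 UMIs over Clec4a4, Dtx1, Cd209a and Clec10a) held 915 and 171. A share of captured cells after enrichment is not a number of cells per spleen.

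**Figure D1:**
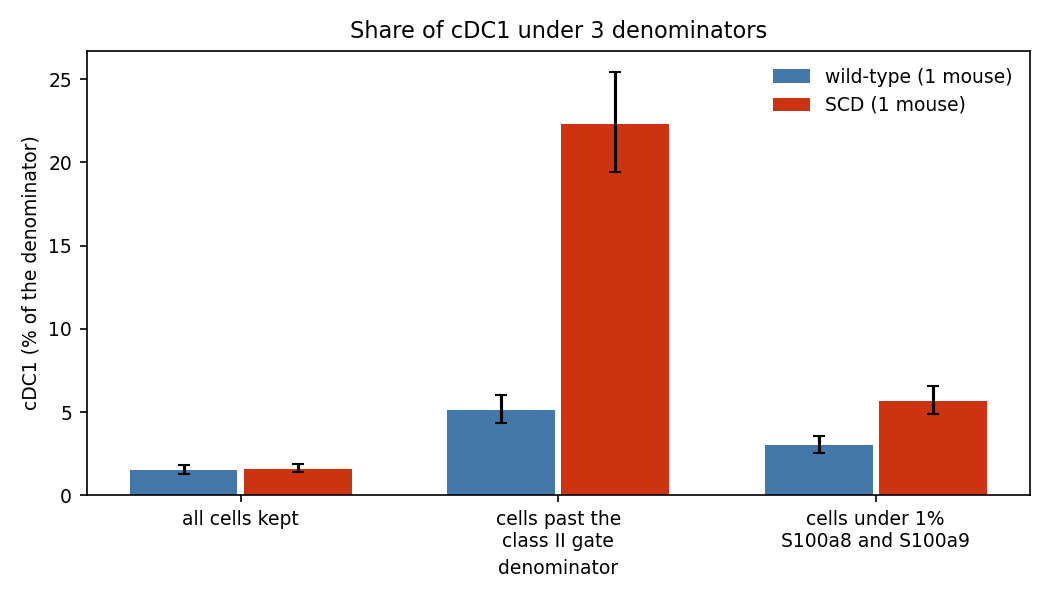
cDC1 as a percentage (y axis) of 3 denominators (x axis) in the wild-type (blue) and the SCD (red) library, with Clopper-Pearson 95% intervals as bars. The shares are 1.54% and 1.61% of all cells kept, and are 5.14% and 22.3% among cells past the class II gate.

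Summed over all members, the 6 markers themselves were all at a higher level in SCD, Itgae the most. Xcr1, Clec9a, Gcsam and Itgae chose the cells, so their levels are a description. Xcr1 was at 649 CPM in wild-type and 779 CPM in SCD. Clec9a was at 406 and 511 CPM, and Gcsam, a signalling adaptor first known from germinal center B cells, at 111 and 158 CPM. Of the markers not used, Naaa, a lysosomal amidase, was at 1896 CPM in wild-type and 2347 CPM in SCD, a ratio of 1.24 (1.19 to 1.29). Tlr3, a sensor of double-stranded RNA, was at 240 and 321 CPM, a ratio of 1.33 (1.20 to 1.49). All 6 markers were seen together in 27.6% of wild-type and 67.8% of SCD members. Members with 3 to 7 UMIs over the 4 cDC1 genes were 28.3% of wild-type and 14.6% of SCD ones. In them Xcr1 was at 126 and 76.0 CPM, Tlr3 at 134 and 111, Clec9a at 185 and 184 and Naaa at 870 and 874. Gcsam was at 50.8 and 63.3 CPM there, and Itgae at 7.53 and 38.0. With the limits applied to cells thinned to 3000 UMIs, Xcr1 had a log2 ratio of -0.0016.

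Itgae (ENSMUSG00000005947, GRCm38 chr11:73090583-73147446, forward strand) encodes the integrin alpha chain that pairs with beta 7 to bind E-cadherin. It was at 78.5 CPM in wild-type and 283 CPM in SCD, a ratio of 3.61 (3.07 to 4.25). A wild-type member held 0 to 13 Itgae UMIs with a median of 0, and an SCD member 0 to 16 with a median of 4, so the ranges overlapped while the typical cell differed. With each cell thinned to 3000 UMIs, 15.3% (9.83 to 22.2) of 144 wild-type and 56.8% (49.0 to 64.4) of 169 SCD members kept an Itgae UMI, 1 and 2 shallower cells being left out (40.7% and 82.5% before thinning). In neutrophils thinned to 1000 UMIs the shares were 0.0236% and 0.0949%, against 6.21% and 25.7% of members. Choosing the cells on Xcr1, Clec9a and Gcsam alone, which leaves Itgae out of the rule, kept 145 and 170 cells and a log2 ratio of 1.79. Its partner Itgb7 was at 121 and 153 CPM.

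Cd8a went the other way. This gene (ENSMUSG00000053977, GRCm38 chr6:71373427-71379173, forward strand) encodes the CD8 alpha chain that most splenic cDC1 carry as a homodimer. It was at 327 CPM in wild-type and 174 CPM in SCD, a ratio of 0.533 (0.474 to 0.599). The median cell held 4 and 1 UMIs. After thinning to 3000 UMIs the share with a Cd8a UMI was 43.1% (34.8 to 51.6) and 36.1% (28.9 to 43.8), intervals that overlapped. It was 24.8% and 15.2% after thinning to 1000 UMIs, and 72.4% and 62.6% before thinning, with overlapping intervals each time. These shares changed with depth. Whether the lower level lay more in the UMIs per cell or in the share of cells was not tested. Cells with Itgae and no Cd8a UMI were 5.56% (2.43 to 10.7) of wild-type and 33.1% (26.1 to 40.8) of SCD members. Cells with Cd8a and no Itgae UMI were 33.3% (25.7 to 41.7) and 12.4% (7.86 to 18.4), and cells with both were 9.72% and 23.7%.

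**Figure D2:**
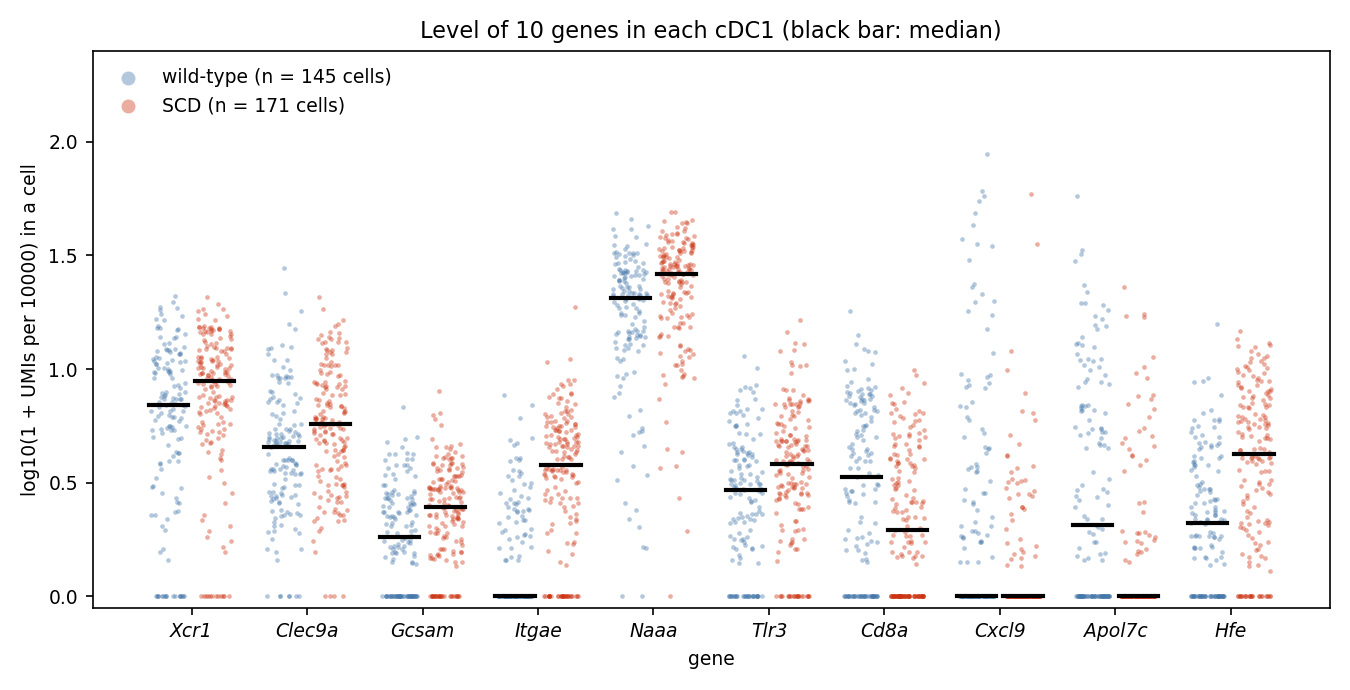
Level of 10 genes in every cDC1, as log10 of 1 plus the UMIs per 10000 of the cell (y axis), for 145 wild-type (blue) and 171 SCD (red) cells, with a black bar at the median. The medians of Itgae and Hfe sit higher and those of Cd8a and Apol7c lower in the SCD cells, Cxcl9 has a median of 0 in both libraries with fewer SCD cells above 0, and the ranges overlap for every gene.

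The transcription factors that make a cDC1 were at nearly the same level in both libraries. Irf8 was at 2183 and 2379 CPM, a ratio of 1.09 (1.05 to 1.13). Batf3 was at 271 and 229 CPM, a ratio of 0.846 (0.756 to 0.947). Id2, needed for cDC1 development, was at 1117 and 1241 CPM, and the myeloid factor Spi1 at 334 and 336 CPM. Of 18 listed DC factors 13 were tested and 0 were past 2-fold, with a median log2 ratio of 0.06. That count is near the share over all genes tested, 0.701% each way. Zeb2, which represses the cDC1 fate, was under the level tested at 41.3 and 15.8 CPM. The wider cDC1 identity list (20 genes, 19 tested) had a median log2 ratio of 0.14, with 1 gene past 2-fold, Sept3. Cadm1, an adhesion molecule of cDC1, was at 497 and 587 CPM, and Wdfy4, needed to cross-present cell-borne antigen, at 756 and 790 CPM. Slamf8, a myeloid surface receptor, was lower in SCD at 115 and 65.0 CPM.

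The cDC1 of each library were also set beside the cDC2 gate of that library. Beyond their shared limits, the cDC1 and cDC2 gates were each drawn on 4 genes of their own. The cDC2 gate also allowed no UMI of the 4 cDC1 genes, Cd79a or Cd79b, while the cDC1 gate set no limit on cDC2 genes. The cells of a gate share their library, so these levels describe the subset. The 20 genes chosen as furthest above cDC2 in both libraries began with Cd207 (langerin, a C-type lectin), at 280 CPM in wild-type and 250 in SCD cDC1, against 0.364 and 0 in cDC2. Rab7b, a GTPase of endosomes and lysosomes, was at 347 and 434 CPM against 2.06 and 1.86. P2ry14, a receptor for UDP-sugars, was at 300 and 321 CPM against 1.21 and 2.48. Irf8 was at 33.95 and 65.8 CPM in cDC2, against 2183 and 2379 CPM in cDC1. Toll-like receptors were a part of this group. Beside Tlr3, Tlr11, a sensor of profilin, was at 137 and 152 CPM against 7.64 and 2.48, and its partner Tlr12 at 77.6 and 64.6 against 2.06 and 0.621. Cd36, a scavenger receptor for dead cells and lipids, was at 190 and 197 CPM against 6.79 and 4.97. On the side of cDC2, Sirpa was at 26.7 and 16.1 CPM in cDC1 against 412 and 346, and the chemokine gene Ccl5 at 22.5 and 4.23 against 545 and 356.

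As BATF3 with JUN partners and IRF8 bind at cDC1 genes, the 250 bases before the RefSeq starts (GRCm38.p6) of these 20 genes and the 6 markers, 24 genes in all of which 19 had an entry, were searched on both strands for the AP-1 letters TGANTCA, the interferon-response letters GAAANNGAAA and the ETS-IRF letters GGAANNGAAA. The AP-1 letters were found for 2 of the 19 genes (10.5%, against 7.82% of all 27025 genes with an entry), the interferon-response letters for 4 (21.1% against 3.46%) and the ETS-IRF letters for 1 (5.26% against 2.68%). No 2 of these letter strings were counted at overlapping places except the pair of interferon-response matches in Apol7c. The windows of 6 of these genes are shown 5′ to 3′ on the strand of the gene, with the matching letters in capitals; a match is a description of the sequence and not a binding site.
Cd207, AP-1 letters, chr6:83677858-83677897, reverse strand: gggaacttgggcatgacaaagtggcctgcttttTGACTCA
P2ry14, AP-1 letters, chr3:59153670-59153709, reverse strand: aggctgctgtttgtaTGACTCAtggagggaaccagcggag
Cd8a, ETS-IRF letters read on the opposite strand, chr6:71373276-71373315, forward strand: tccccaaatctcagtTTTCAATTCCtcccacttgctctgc
Apol7c, interferon-response letters read on the opposite strand, chr15:77533340-77533379, reverse strand: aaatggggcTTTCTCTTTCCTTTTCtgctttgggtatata
Ifi205, interferon-response letters, chr1:174031865-174031904, reverse strand: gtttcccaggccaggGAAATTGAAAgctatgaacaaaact
Tlr11, interferon-response letters, chr14:50357777-50357816, forward strand: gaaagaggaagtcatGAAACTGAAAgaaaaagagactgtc

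Of these genes, Ifi205, an interferon-inducible DNA sensor family member, was at 162 CPM in wild-type and 196 CPM in SCD, and Tlr11 at 137 and 152 CPM. Apol7c, with the same letters in its window, was lower in SCD as given below. The letters therefore lay before genes with unlike ratios between the libraries.

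Across the transcriptome the cDC1 of the 2 libraries were much alike. Of 2996 genes tested (at least 50 CPM and 20 UMIs in either library), 2893 (96.6%) lay within 1.5-fold of each other, with a median log2 ratio of -0.03. Past 2-fold, on log2 of CPM plus 5, were 21 genes higher in SCD (0.701% of those tested) and 21 lower (0.701%). Of the higher genes, 8 were neutrophil genes such as Ngp and Camp and 1 was the globin gene Hba-a1. These were far more abundant in other cells of their library and are given below as transcripts of other cells. Itgae and 11 further genes made up the rest. Of the lower genes, 5 were likewise more abundant elsewhere, among them Ltb, Il1b, S100a4 and Igkc, 15 are described below, and the last was Ahr, the aryl hydrocarbon receptor, at 126 and 59.2 CPM.

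**Figure D3:**
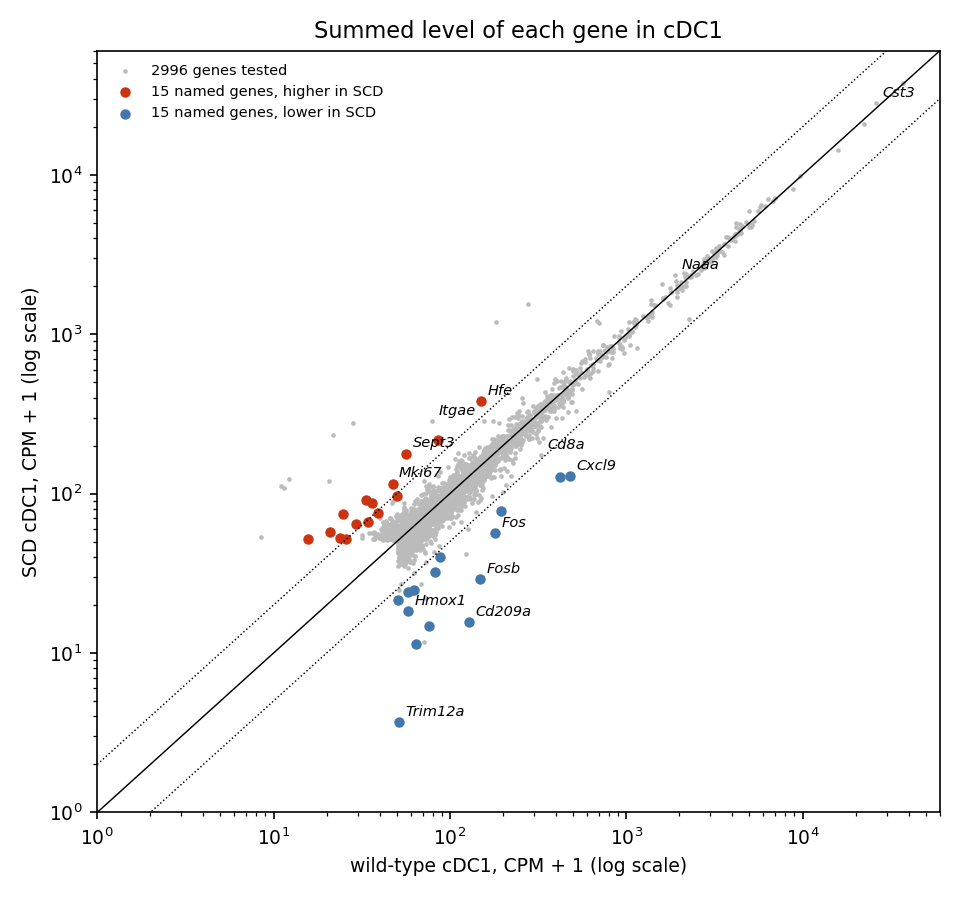
Summed level of each of 2996 tested genes in wild-type (x axis) and SCD (y axis) cDC1, as CPM plus 1 on log scales, with the line of equal level and dotted lines at 2-fold. The 15 named genes on each side are in red (higher in SCD) and blue (lower in SCD), and 96.6% of genes lie within 1.5-fold.

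The genes higher in SCD cDC1 are given as 2 kinds, single genes first. Sept3, a septin on the cDC1 identity list, was at 55.5 CPM in wild-type and 177 CPM in SCD, a ratio of 3.19 (2.63 to 3.90), and was seen in 31.0% and 66.7% of members. Hfe, the hemochromatosis protein, which is related to MHC class I and takes part in iron sensing, was at 149 and 379 CPM, a ratio of 2.54 (2.25 to 2.88). Its level was over 2-fold higher in dividing and in non-dividing SCD members alike, at 83.7 against 251 CPM and 178 against 469 CPM. It was nearly level in members with 3 to 7 UMIs over the 4 cDC1 genes, at 92.3 and 98.2 CPM with overlapping intervals, and apart in those with 8 or more, at 165 and 418 CPM. Myof, a ferlin of membrane repair, was at 23.8 and 73.0 CPM, a ratio of 3.07 (2.27 to 4.20). Phf11a, of the PHD finger family, was at 32.6 and 89.6 CPM, a ratio of 2.75 (2.12 to 3.60). Fndc5, the precursor of irisin, was at 35.1 and 86.1 CPM, and Vwf, von Willebrand factor, at 23.0 and 51.5 CPM. Spata7 was at 20.04 and 56.5 CPM, but 60.4% of its 48 wild-type UMIs came from 1 cell. Just under 2-fold were Cxcr3, the receptor for CXCL9 and CXCL10, at 33.4 and 65.0 CPM, and the metallothionein Mt1 at 48.8 and 95.7 CPM.

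The second kind were genes of dividing cells, and their difference depended on which cells were kept. Mki67, a marker of cycling cells, was at 46.3 CPM in wild-type and 115 CPM in SCD, a ratio of 2.47 (1.98 to 3.10). All 8 tested of 30 listed G2 and M phase genes were higher in SCD, with a median log2 ratio of 0.79, against 44.1% of all genes tested that were higher. Top2a, which untangles replicated DNA, was at 46.8 and 88.8 CPM, and Birc5 (survivin) at 24.6 and 51.1 CPM. The 4 tested of 25 S phase genes had a median of 0.09. The histone genes Hist1h1b, Hist1h2ap and Hist1h2ae were also among the 15, at 14.6 and 50.7, 85.2 and 216, and 38.0 and 74.2 CPM. The top SCD cell held 54 of 132 Hist1h1b UMIs, and the top wild-type cell 8 of 35. For Hist1h2ap these were 182 of 563 and 60 of 204 UMIs. Without the top cell of each library, Hist1h2ap had a log2 ratio of 1.22, against 1.30 with it. Hist1h2ae had a log2 ratio of -0.15 without dividing cells, and Hist1h2ap -0.03 with class II at 3% or more.

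Cells with at least 4 UMIs over both cycle lists after thinning to 3000 UMIs were called dividing. They were 29.9% (22.5 to 38.0) of wild-type and 37.9% (30.5 to 45.6) of SCD members, a ratio of 1.27 (0.924 to 1.74). This limit lies within a continuous range, with medians of 2 and 3 such UMIs, 12 and 18 cells at 4 and 18 and 25 cells just below. With at least 10 UMIs, 12.5% and 16.6% were called so. Mki67 was seen in 9.03% and 16.0% of the thinned members, and Hmgb2, on the G2 and M phase list, in 47.2% and 47.9%. Dividing therefore names a cell by its count, here and elsewhere, and not a cell shown to divide. The upper limit on genes bore on this count. Of the gated cells, 38 wild-type cells (14.5% of 262 gated cells) but 16 SCD cells (5.23% of 306) passed every other limit and had over 5000 genes. Those left out held Mki67 at 461 CPM in wild-type and 934 CPM in SCD. With the upper limit on genes lifted, 39.6% (32.4 to 47.1) and 38.9% (31.9 to 46.3) were called dividing, a ratio of 0.984 (0.763 to 1.27). With the ribosomal limit lifted as well, Mki67 had a log2 ratio of 0.11, and the median of the G2 and M phase genes was -0.05.

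The genes lower in SCD cDC1 are given in 4 groups, which were drawn after their values were seen. The first held secreted, phagosomal and survival genes. Cxcl9, a chemokine that draws CXCR3+ T cells and is induced by interferon gamma, was at 479 CPM in wild-type and 128 CPM in SCD, a ratio of 0.267 (0.236 to 0.302). It was seen in 49.7% of wild-type and 25.1% of SCD members, and 1 SCD cell held 33.0% of the SCD UMIs while the top wild-type cell held 12.9%. Without the top cell of each library the log2 ratio was -2.22, against -1.86 with it. Apol7c (ENSMUSG00000044309, GRCm38 chr15:77524852-77533316, reverse strand), an apolipoprotein L that damages phagosome membranes in cross-presenting DCs, was at 420 and 126 CPM, a ratio of 0.299 (0.263 to 0.339). Serpina3g, a protease inhibitor, was at 57.2 and 23.1 CPM, with 48.3% of its SCD UMIs in 1 cell. Bcl2a1b, an inhibitor of apoptosis, was at 194 and 77.3 CPM, a ratio of 0.399 (0.336 to 0.472). Its copies Bcl2a1a and Bcl2a1d, whose reads can be hard to assign, were lower too, at 139 and 75.3 and at 207 and 113 CPM.

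The second group were immediate early and heat shock genes. Fos, a subunit of the AP-1 transcription factor, was at 180 CPM in wild-type and 55.4 CPM in SCD, a ratio of 0.307 (0.252 to 0.372), and Fosb at 148 and 28.1 CPM, a ratio of 0.190 (0.146 to 0.245). Of 30 listed genes 21 were tested, 18 were lower in SCD and 2 were past 2-fold, with a median log2 ratio of -0.37. Of all genes tested, 55.9% were lower and 0.701% were lower past 2-fold. The chaperone Hspa8 was at 1149 and 820 CPM, and Dnaja1, its co-chaperone, at 319 and 208 CPM, whereas Jund was at 347 and 345 CPM. The list was lower in other cells of the SCD library as well. Its summed level was 7017 and 5566 CPM in cDC1, 6368 and 4945 CPM in the cDC2 gate and 6469 and 1977 CPM in the neutrophil gate.

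The third group were genes more abundant in other DC than in cDC1. Cd209a, a DC-SIGN-related lectin on the cDC2 list, was at 127 CPM in wild-type and 14.6 CPM in SCD, Tmem176a at 63.4 and 10.4 CPM, and Tmem176b, which with it forms an ion channel of DC, at 75.6 and 13.8 CPM. In wild-type, Tmem176a was at 345 CPM in the cDC2 gate and 1681 CPM in the mature DC gate, and Tmem176b at 471 and 1543 CPM. The 14 genes of the cDC2 list summed to 616 CPM in wild-type and 302 CPM in SCD cDC1, against 3801 and 4070 CPM in the cDC2 gate. The summed cDC2 list was higher in cells near the limit of the rule. Members with 3 to 7 UMIs over the 4 cDC1 genes were 41 of 145 in wild-type (28.3%) and 25 of 171 in SCD (14.6%), and in them the cDC2 list summed to 1484 and 542 CPM. In members with 8 or more it summed to 369 and 269 CPM, where Cd209a had 90 UMIs in 104 wild-type cells and 8 UMIs in 146 SCD cells. With the limits applied to cells thinned to 3000 UMIs, the log2 ratio was -1.27 for Cd209a and -0.70 for Tmem176a, against -2.75 and -2.15. A single SCD cell held 55.3% of the 38 SCD Cd209a UMIs. Just inside the limit, 9 wild-type and 8 SCD cells had a sum of 3, and just outside it 26 and 15 cells had a sum of 2.

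The fourth group held single genes. Hmox1, heme oxygenase 1, which breaks down heme, was at 57.2 CPM in wild-type and 17.3 CPM in SCD, a ratio of 0.303 (0.211 to 0.426), with 24.8% of its 137 wild-type UMIs in 1 cell. It was seen in 18.6% and 14.6% of members. Il6st, the shared signalling chain of the IL-6 receptor family, was at 81.8 and 31.1 CPM, and the semaphorin receptor Plxnc1 at 86.4 and 39.2 CPM. Serpinb10 was at 61.4 and 23.8 CPM and the adhesion receptor Adgrl3 at 50.1 and 20.4 CPM. Trim12a (ENSMUSG00000066258, GRCm38 chr7:104299894-104315466, reverse strand), of a family of antiviral ring-finger proteins, was at 50.5 CPM in wild-type and 2.69 CPM (7 UMIs) in SCD. This gene lies 0.472 Mb from Hbb-bs, at the locus that differs between the animals by design, and its level was also low in the SCD cDC2, mature DC, plasmacytoid DC and neutrophil gates, with log2 ratios of -3.49, -3.42, -3.45 and -3.76. Of 25 genes tested within 5 Mb of Hbb-bs it was the only one past 2-fold (4% lower and 0% higher), beside 0.701% of all genes tested each way. It was also the only one of 59 within 20 Mb (1.69% lower and 0% higher). A share resting on 1 gene shows no excess near the locus. Reads of Trim12a and its copy Trim12c can be hard to assign.

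**Figure D4:**
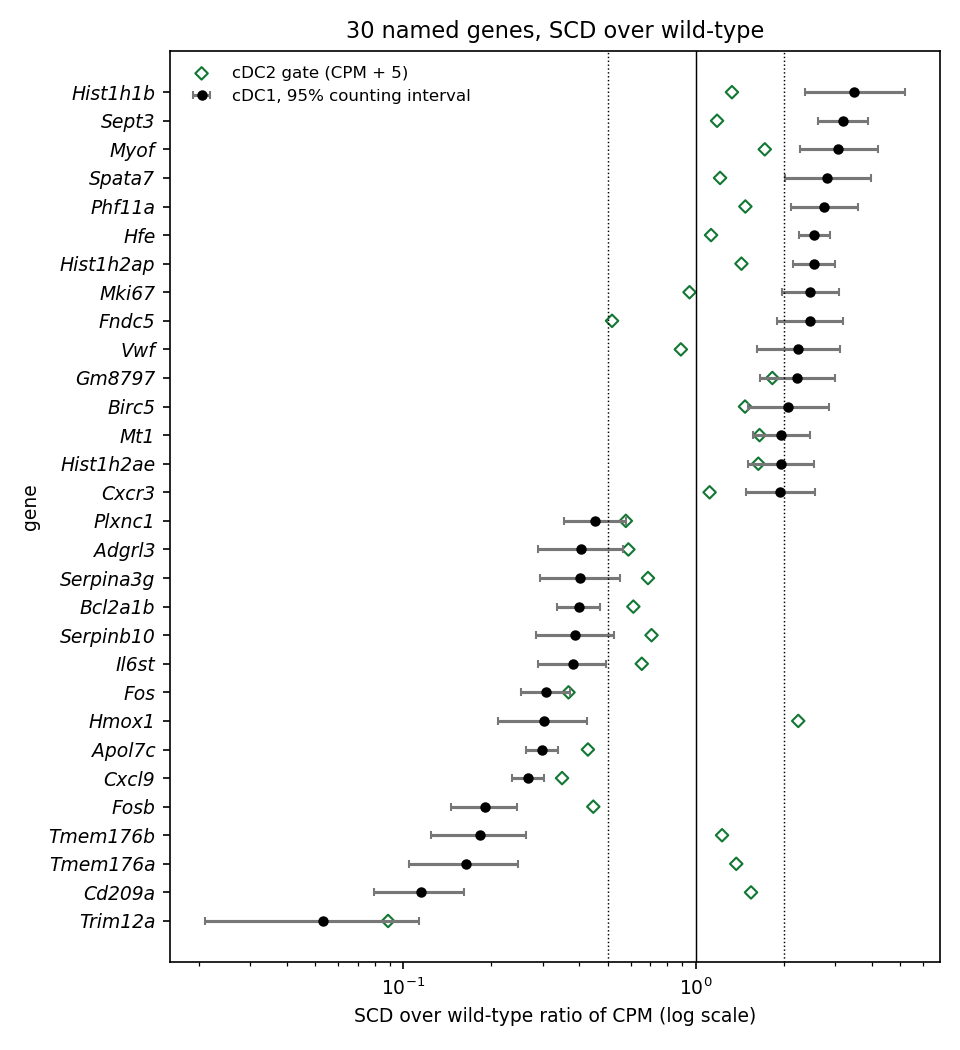
SCD over wild-type ratio of CPM (x axis, log scale) of the 30 named genes (y axis) in cDC1, as black points with 95% counting intervals, and in the cDC2 gate, as green diamonds computed on CPM plus 5. Dotted lines mark 2-fold; Cd209a, Tmem176a, Tmem176b and Hmox1, lower in SCD cDC1, and Fndc5, Vwf and Mki67, higher there, lie on the other side of 1 in the cDC2 gate.

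Gene groups tied to cDC1 function were close in the 2 libraries, as were most genes tested. Of all 2996, 0.701% were past 2-fold higher and 0.701% lower, so a count of 0 in a short list is near that share. For MHC class I and cross-presentation, 16 of 20 genes were tested and 0 were past 2-fold, with a median log2 ratio of -0.08. H2-K1 was at 1005 and 989 CPM, and the peptide transporter Tap1 at 243 and 295 CPM. Class II pathway genes outside the rule had a median of 0.22 over 8 tested, with 0 past 2-fold. H2-Ob, which tunes peptide loading, was at 233 and 299 CPM, while Ctss, the protease that cuts the invariant chain, was at 488 and 374 CPM.

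Maturation genes were low in both libraries, as the limit on Ccr7 and Fscn1 fixes in part. Of 20 listed, 5 were tested and 0 were past 2-fold, with a median of -0.03. Cd86, a costimulatory ligand, was at 173 and 171 CPM, and Nfkbia, the inhibitor of NF-kB, at 173 and 95.3 CPM. Of 15 cytokine and chemokine genes 4 were tested and 2 were past 2-fold lower, Cxcl9 and Il1b, against 0.701% of all genes tested. Il1b was set aside above as more abundant in other cells. The receptor list for chemokines and egress had 5 of 13 tested and a median of 0.32, with 0 past 2-fold. Ccr9 was at 43.0 and 60.7 CPM.

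Few of the heme and iron genes were abundant enough to be tested. Of 18 heme and iron genes 5 were tested, with a median log2 ratio of -0.05, and 1 was past 2-fold, Hmox1. Hfe, past 2-fold higher and given above, is not on the list. The ferritin chains Fth1 and Ftl1 were at 1772 and 1952 CPM and at 2402 and 2488 CPM. Of 20 NRF2 and antioxidant genes 8 were tested and 0 were past 2-fold, with a median of 0.01. Past 2-fold were 0.701% of all genes tested each way, so a count of 0 is near that share. Nfe2l2, which encodes NRF2, was at 53.0 and 36.1 CPM, and Gpx4, which reduces lipid peroxides, at 107 and 141 CPM.

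The interferon response list (26 genes, 8 tested) had a median of -0.16 with 0 past 2-fold, beside 0.701% of all genes tested each way. In it 6 of the 8 were lower in SCD, beside the 55.9% of all genes tested. Ifitm3 was at 433 and 296 CPM, and Mx1 at 38.0 and 54.6 CPM. Of 7 tested BCL2 family genes 1 was past 2-fold, Bcl2a1b, and the list had a median of -0.24. Mcl1, a survival factor, was at 467 and 397 CPM and the death effector Bax at 151 and 163 CPM. For oxidative phosphorylation 18 of 20 genes were tested, with a median of -0.14 and 0 past 2-fold. Toll-like receptors and adaptors had a median of -0.05 over 4 tested, and the efferocytosis and lipid list -0.06 over 6 tested with 1 past 2-fold, Apol7c. Apoe was at 317 and 248 CPM.

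Beside the cDC2 list, the members held transcripts listed for cells of other types, and the neutrophil list differed most between the libraries. The 16 neutrophil genes summed to 597 CPM in wild-type and 3796 CPM in SCD members. All 8 tested were past 2-fold higher, against 0.701% of all genes tested. The rule bounds this sum, since it caps S100a8 and S100a9, which are on the list. The 14 neutrophil genes without this pair summed to 141 CPM in wild-type and 1054 CPM in SCD members. The sum of all 16 was 289627 and 440141 CPM in the neutrophil gate itself. That of the 14 was 136 and 142 CPM in wild-type members with 3 to 7 and with 8 or more cDC1 UMIs, and 1425 and 1002 CPM in SCD ones. The 11 B cell genes summed to 316 and 288 CPM, the 15 monocyte and macrophage genes to 387 and 337 CPM, the 10 plasmacytoid DC genes to 152 and 155 CPM, the 10 T and NK cell genes to 4.59 and 5.38 CPM, with 8 and 6 of them at 0, and the 14 erythroid genes to 87.2 and 190 CPM.

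Variation among the members was measured in cells thinned to 3000 UMIs, where the median Fano factor (variance over mean, near 1 for sampling alone) of 1772 genes was 1.12 in wild-type and 1.10 in SCD. The 15 genes furthest above it were Cst3, Hmgb2, Lyz2, Tmsb4x, Apoe, Actb, Cxcl9, Vim, Ifitm3, Tmsb10, Crip1, Hist1h2ap, Tuba1b, Ptma and S100a10. Cst3, which encodes the protease inhibitor cystatin C, was at 26015 and 28130 CPM. Dividing members held less of the cDC1 markers than the others, with a sum over the 6 of 2669 against 3695 CPM in wild-type and 3786 against 4819 CPM in SCD. Itgae was at 23.3 against 103 CPM in wild-type and 211 against 329 CPM in SCD, so its level was higher in SCD in both kinds of cell. Cd8a was nearly even, at 302 against 338 and 160 against 182 CPM. Cxcl9 was lower in SCD among cells not dividing, at 619 and 65.7 CPM, while dividing ones were at 160 and 219 CPM. A single dividing SCD cell held 110 of the 232 Cxcl9 UMIs there and a single wild-type one 50 of 117. Without that SCD cell the SCD level was 117 CPM, below the wild-type level, and without both cells the levels were 93.0 and 117 CPM, so no direction is given for dividing cells.

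Many cells met the cDC1 limits but not the quality limits. Of 262 wild-type and 306 SCD cells that met the cDC1 limits, 77 and 117 failed only on ribosomal protein UMIs, of which the members themselves held a median of 25.3% and 24.9%. In these cells, which come from the same 2 mice, Itgae was at 132 CPM in wild-type and 296 CPM in SCD, Hfe at 237 and 534 CPM and Sept3 at 19.2 and 135 CPM. Cd8a was at 336 and 148 CPM, Cxcl9 at 463 and 93.4 CPM and Apol7c at 580 and 46.7 CPM. These 6 genes kept their direction there, while Cd209a was nearly level, at 37.0 and 37.9 CPM. Tmem176a and Tmem176b, lower in SCD members, turned direction in these cells. Tmem176a was at 19.2 CPM in wild-type and 34.04 CPM in SCD, and Tmem176b at 28.1 and 47.7 CPM, with overlapping counting intervals for each gene.

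**Figure D5:**
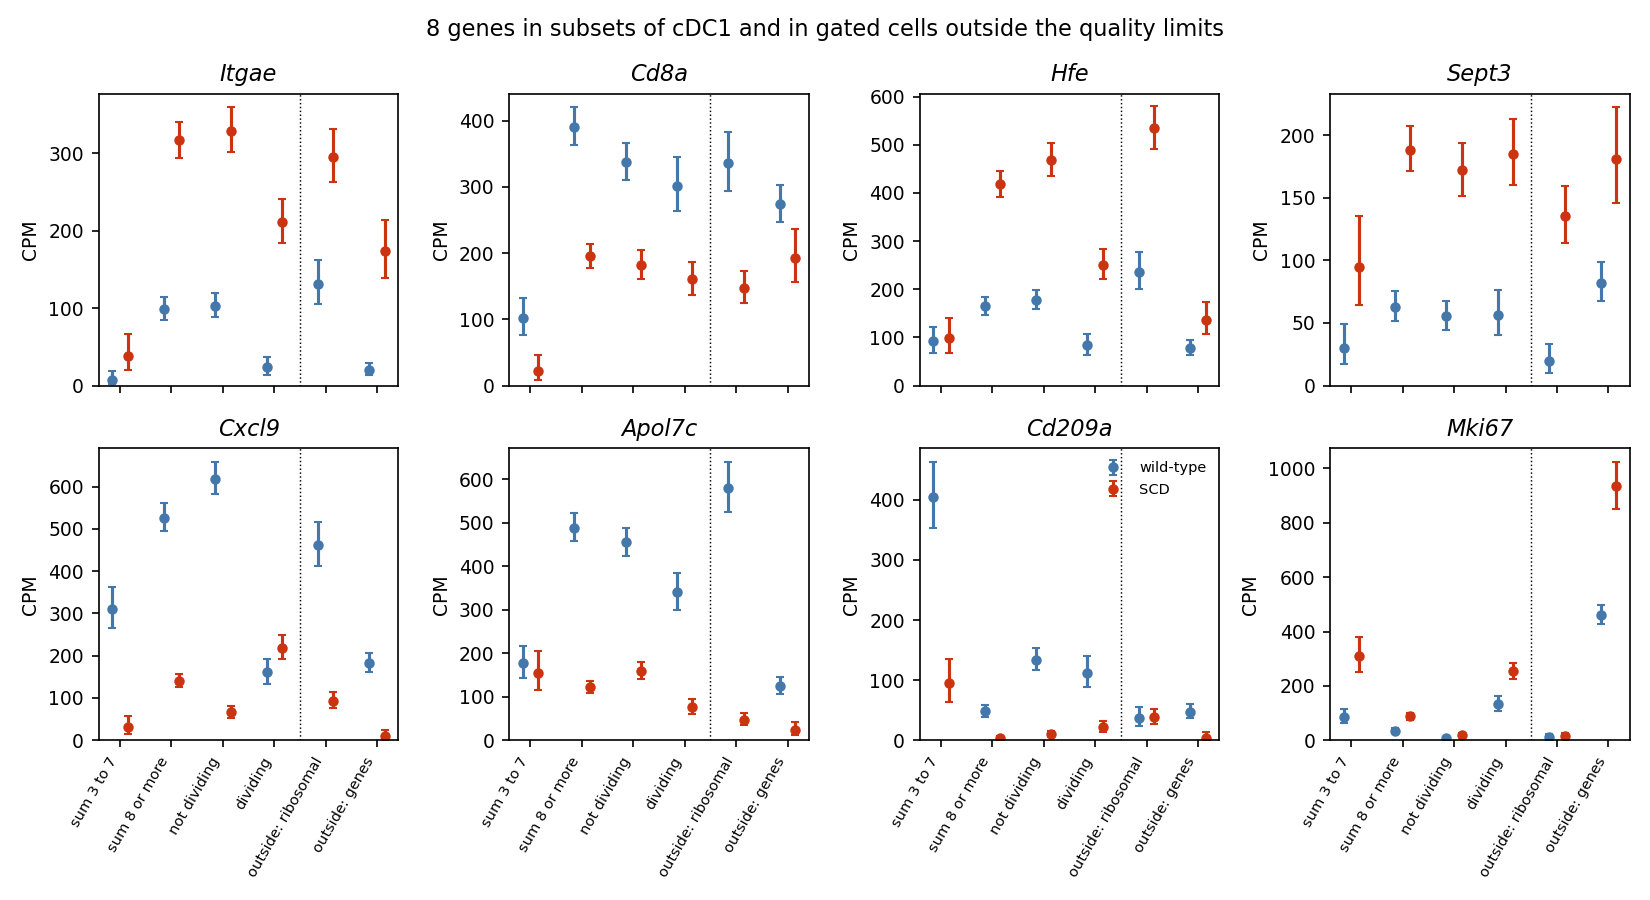
Level in CPM (y axis, from 0) of 8 genes in 4 subsets of cDC1 and, right of the dotted line, in cells that met the cDC1 limits but had 30% or more ribosomal UMIs or over 5000 genes (x axis), wild-type in blue and SCD in red, with exact Poisson 95% intervals. Itgae, Hfe, Cd8a and Apol7c part the libraries in most subsets, Cd209a has its widest gap in CPM where the cDC1 sum is low, and Mki67 is highest in the cells with over 5000 genes.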

How the data were processed

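Cells were taken from the spleens of 1 wild-type and 1 SCD mouse. The authors deposited, for each library, raw UMI counts per gene and barcode, made per the labels with Cell Ranger 4.0.0 on GRCm38.p6; they are not normalized. Counts were read in Python 3.11.15 with numpy 2.4.6, scipy 1.17.1 and pandas 2.3.3, and 26013 of 26124 gene identifiers were found in GENCODE M21. Members' counts were summed per library and scaled to CPM over all genes, and genes with at least 50 CPM and 20 UMIs in either library were tested against a 2-fold limit on log2(CPM + 5). With 1 sample per group no significance test was run. Intervals are at 95% (Clopper-Pearson for shares, exact Poisson for sums, exact conditional binomial for ratios of counts, Katz for ratios of shares). Doublets were called with Scrublet (scanpy 1.11.5), on genes in at least 20 cells, and were removed only as an alternative. Named genes were the 6 markers, the 15 highest and 15 lowest by log2 ratio (leaving out genes of the rule, genes of mitochondria, ribosomes, antigen receptors and globins, sex-linked genes, and those over 5-fold more abundant over all cells kept than in members), the 20 highest and 10 lowest against cDC2, the 15 most variable and 20 most abundant, and of each gene list the members past 2-fold and the 3 most abundant. Genes outside this rule that are named, such as Zeb2 and Ahr, were chosen after their values were seen. The members and the lists were chosen with earlier results of these data known. On simulated counts with counting noise only, the comparison recovered genes changed by known folds set past the 2-fold limit. This checks the calculation, and it holds no variation between cells or animals. Alternatives on limits, scaling, pseudocount and denominators are given in the closing section. Some genes that the rule would name are not reported here.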

Additional observations from a re-analysis of the deposited data

Results flagged for a closer look

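Cd209a was lower in SCD cDC1, with a log2 ratio of -2.75, and higher in the SCD cDC2 gate, with 0.63. Hmox1 was likewise lower in SCD cDC1, at -1.48, and higher in the cDC2 gate, at 1.17. Tmem176a and Tmem176b were lower in SCD cDC1, at -2.15 and -2.10, and higher in the cDC2 gate, at 0.46 and 0.30. Mki67 was higher in SCD cDC1, at 1.22, and at -0.07 in the cDC2 gate, and Vwf was at 1.02 and -0.17. Fndc5 was at 1.19 in cDC1 and had 68 wild-type and 3 SCD UMIs in the cDC2 gate, at 8.25 and 1.86 CPM. Each gene drew notice because its log2 ratio had opposite signs in the 2 gates, and the difference was not tested. In the cDC2 gate Mki67 and Vwf were close in the 2 libraries. Mki67 was at 108 and 103 CPM there, and Vwf at 11.8 and 9.93 CPM (97 and 16 UMIs). The Cd209a gate value is partly set by the cDC2 gate, which uses that gene. Cells that met the cDC1 limits but held 30% or more ribosomal protein UMIs, which the cDC1 share in the report leaves out, were 38.2% (32.8 to 43.9) of the gated SCD cells, above the 29.4% (23.9 to 35.3) of the wild-type ones, with overlapping intervals.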

How the results depend on the processing

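No paired analysis was possible because there was a single sample per genotype, and no library could be left out. The SCD over wild-type share ratio of 1.04 was 0.838 with no upper limit on genes, 4.34 when taken over cells past the class II gate and 1.89 when taken over cells with under 1% of UMIs on S100a8 and S100a9. Of genes past 2-fold, 21 each way, 7 were higher and 2 lower at 200 CPM or more (619 tested), and 68 and 75 with no minimum CPM (9583 tested), where fewer or more genes could be called. The count of lower genes was 32 with a cDC1 sum of at least 2, the cause of which was not tested, and 13 with a pseudocount of 20 CPM, which shrinks low genes. Some genes of division turned direction. With neither the ribosomal nor the upper gene limit, the G2 and M phase median was -0.050, Birc5 -0.082, Hist1h1b -0.27 and Hist1h2ae -0.090 on the log2 scale, while Mki67 stayed at 0.11 and Hist1h2ap at 0.48. With no upper gene limit alone, Hist1h1b was at -0.11. With class II at 3% or more, Hist1h2ap was at -0.032 and Hist1h2ae at -0.58. Hist1h2ae was at -0.15 without dividing cells and at -0.056 with gates on cells thinned to 3000 UMIs, where Xcr1 was at -0.0016. Of 780 log2 ratios of named genes under the alternatives, 658 stayed within their counting interval. The limits of a cDC1 sum of 8, of no Itgae in the sum, of no ribosomal limit, of another total and of no top cell were chosen after seeing the data. The limits of 50 CPM and 20 UMIs, used with 145 and 171 cells, were a choice and not a measured bound of what this depth can show.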
